A study of Mus musculus with 4 samples.

Results

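Nuclei holding transcripts of at least 2 different immediate early genes were singled out from single-nucleus RNA sequencing libraries of mouse hippocampus. The 10 genes of the rule were Arc, Fos, Fosb, Junb, Egr1, Egr3, Egr4, Npas4, Nr4a1 and Nr4a3, and a gene counted as present with at least 1 unique molecular identifier (UMI, a tag that marks 1 captured transcript). Of 47103 barcodes with at least 600 UMIs and at most 5% mitochondrial UMIs, 1603 met the rule, a share of 3.40% (95% exact Clopper-Pearson interval 3.24 to 3.57%). Another 9483 nuclei held exactly 1 of the 10 genes and 36017 held none. Members numbered 177 of 6019 nuclei in Trained replicate 1, 371 of 12205 in Trained replicate 2, 617 of 16916 in Untrained replicate 1 and 438 of 11963 in Untrained replicate 2. All intervals here cover counting error only.

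Both groups carried the same genotype, ArcCreERT2::eYFPflx, in which a drug-inducible Cre recombinase under Arc control permanently switches on a yellow fluorescent protein in cells that express Arc while the drug is present, here at the retention test. Trained mice had learned active place avoidance, a task in which mice on a turning platform must avoid a sector that delivers mild shocks, and the controls were untrained mice of that genotype. Tissue was collected 3 days after a retention test with no recall session in between. The 4 libraries came from 2 trained and 2 untrained mice, and the fluorescent tag was not analysed here.

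Immediate early genes are switched on within minutes of strong synaptic input, by transcription factors already present in the nucleus, and their transcripts decay again quickly. Most encode transcription factors that act on later genes, while Arc encodes a synaptic protein that controls the removal of glutamate receptors from the membrane. In the hippocampus, sparse groups of neurons that express several of them together are widely used as markers of recent activity.

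Depth was shallow and uneven. Kept nuclei held 4799202, 12319085, 18423764 and 14758992 UMIs in Trained replicates 1 and 2 and Untrained replicates 1 and 2, with medians of 736, 887, 957.5 and 1080 per nucleus. Pairs of libraries shared 17 to 65 barcodes among kept nuclei. A doublet score marked 11.9% of members and 6.16% of nuclei without a rule gene as probable doublets of mixed nuclei. These shares were not matched for depth, with medians of 1101 UMIs in members and 910 in nuclei without a rule gene.

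A member was most often a nucleus with a single copy of each of 2 rule genes. Exactly 2 rule genes were found in 1390 members, 3 in 179, 4 in 29, 5 in 4 and 7 in 1, and 78.4% of members held exactly 2 UMIs of the rule genes in all. The nucleus with 7 was an upper-layer-cortical-like nucleus of Untrained replicate 2 with Arc, Fosb, Egr1, Egr3, Npas4, Nr4a1 and Nr4a3 among 3733 UMIs, and it was marked as a probable doublet, as were all 4 nuclei with 5 rule genes. The values in this and the next paragraph are those that chose the members, and they are given as a description.

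Egr1, a zinc-finger factor with targets in synaptic plasticity, was present in 42.3% of members. Nr4a1 and Nr4a3, orphan nuclear receptors that bind DNA without a known ligand, were present in 32.9% and 30.7%. Junb, a partner of Fos proteins in the AP-1 factor, was present in 31.8%, and Arc in 26.2%. Egr3 and Egr4, relatives of Egr1, were present in 19.7% and 11.0%, and Npas4, a factor induced by calcium entry that acts on synapses of inhibitory input, in 11.0%. The AP-1 subunits Fos and Fosb were the rarest, at 6.74% and 3.49%. The commonest pair was Egr1 with Nr4a1, in 165 nuclei, followed by Egr1 with Nr4a3 in 142 and Junb with Egr1 in 136.

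The promoters of the rule genes are shown because the members were chosen for holding these genes together. The RefSeq promoter table (GRCm38.p6, 250 bases before to 50 after the start) held 7 of the 10 rule genes, Arc, Egr1 and Egr3 being unmatched. All 7 held the letters TGACG on one strand or the other, the core of the cAMP response element that the activity-regulated factor CREB binds, against 21.0% of 27025 promoters of the same length. None of the 7 held the full palindrome TGACGTCA, found in 1.88% of all promoters, or a CArG box, the site of serum response factor, found in 1.57%. All 13 other genes looked up, each described below, were matched, of which 7 held TGACG and 2, Btg2 and Pcsk1, held TGACGTCA, which counts as 2 overlapping TGACG matches. Below, capitals mark TGACG on either strand. Nr4a1 and Npas4 are rule genes, and Nr4a2 and Btg2 are immediate early genes outside the rule that were higher in members. Each promoter shown holds a match. Tiparp, also an immediate early gene outside the rule that was higher in members, held none. Ntrk2, Dpp10, Pde10a, Brinp1 and Bdnf held none either.
Nr4a1, chr15:101266596-101266895, plus strand: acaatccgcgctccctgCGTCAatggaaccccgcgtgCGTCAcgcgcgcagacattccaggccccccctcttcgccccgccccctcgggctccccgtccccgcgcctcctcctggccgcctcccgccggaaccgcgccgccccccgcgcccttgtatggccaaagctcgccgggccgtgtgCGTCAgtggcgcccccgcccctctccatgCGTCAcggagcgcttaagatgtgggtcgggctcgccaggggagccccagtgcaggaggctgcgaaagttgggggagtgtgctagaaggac
Npas4, chr19:4989922-4990221, minus strand: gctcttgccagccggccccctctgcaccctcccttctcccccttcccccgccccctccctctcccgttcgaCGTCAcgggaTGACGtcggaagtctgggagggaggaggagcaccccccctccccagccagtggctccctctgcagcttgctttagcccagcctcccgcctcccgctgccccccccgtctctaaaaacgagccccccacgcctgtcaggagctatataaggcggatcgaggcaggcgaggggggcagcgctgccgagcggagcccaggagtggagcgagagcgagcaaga
Nr4a2, chr2:57123954-57124253, minus strand: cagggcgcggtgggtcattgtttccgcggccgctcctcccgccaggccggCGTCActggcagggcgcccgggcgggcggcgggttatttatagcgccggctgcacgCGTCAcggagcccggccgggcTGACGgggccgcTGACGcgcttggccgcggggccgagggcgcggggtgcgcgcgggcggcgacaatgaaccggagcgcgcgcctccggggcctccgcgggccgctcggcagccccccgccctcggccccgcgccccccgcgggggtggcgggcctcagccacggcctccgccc
Btg2, chr1:134079106-134079405, minus strand: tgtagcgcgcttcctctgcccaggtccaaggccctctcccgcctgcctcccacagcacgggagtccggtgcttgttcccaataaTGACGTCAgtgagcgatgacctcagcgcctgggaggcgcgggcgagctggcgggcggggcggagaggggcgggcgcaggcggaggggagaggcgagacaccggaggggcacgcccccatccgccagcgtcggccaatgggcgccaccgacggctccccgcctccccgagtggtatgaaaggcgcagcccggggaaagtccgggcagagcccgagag
These matches describe letters in a window and do not show a site in use.

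The share of members moved with depth, and so with library. As deposited, Trained replicates 1 and 2 stood at 2.94% and 3.04%, below Untrained replicates 1 and 2 at 3.65% and 3.66%. After each nucleus was thinned at random to 600 UMIs, the shares were 1.74% and 1.38% in trained and 1.33% and 1.103% in untrained libraries, so both trained libraries were higher. The thinned means were 1.56% ± 0.254 (SD, n = 2) and 1.22% ± 0.160 (SD, n = 2), a difference of 0.348 percentage points with an exact two-sided permutation p of 0.333, the smallest that 2 libraries against 2 can give. Within bins of deposited depth the groups lay apart only among the shallowest nuclei, of 600 to 800 UMIs, at 2.40% and 2.31% in trained and 1.88% and 2.24% in untrained libraries. Among nuclei of 800 to 1000 UMIs the shares were 3.46% and 2.64% against 2.54% and 2.69%, and among nuclei of 1000 to 1500 UMIs they were 3.99% and 3.25% against 4.25% and 3.75%. With Nr4a3 left out of the rule, the thinned difference was 0.0582 points, and with nuclei of at least 1000 UMIs it was 0.0303 points.

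**Figure D1:**
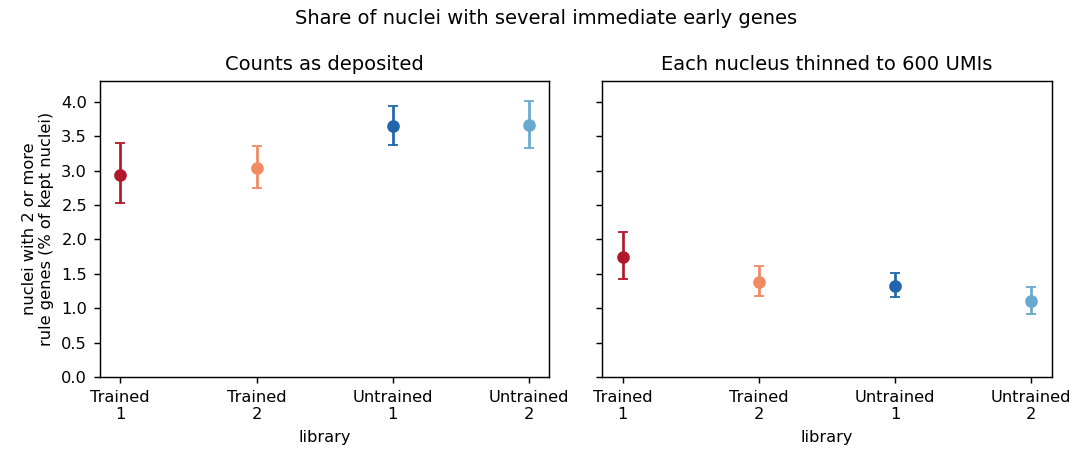
Share of kept nuclei with 2 or more rule genes in each of the 4 libraries, as deposited (left) and after thinning to 600 UMIs (right); bars are 95% exact Clopper-Pearson intervals. Trained libraries lie below untrained ones at left (2.94% and 3.04% against 3.65% and 3.66%) and above them at right.

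To ask whether the 10 genes went together beyond the rule, each was left out in turn, nuclei were chosen by 2 or more of the other 9, and the gene was then read out in them and in as many nuclei of the same library and depth that held none of the other 9. The left-out gene was found more often in the chosen nuclei, on average over libraries, for all 10 genes, and in 4 of 4 libraries for Arc, Egr1, Egr4, Npas4 and Nr4a3. With nuclei of at least 1000 UMIs, the mean difference for Egr1 turned to -0.30 points, while Egr1 was higher in 3 of 4 libraries. Trained replicate 1 stood at 0% against 18.2%, which is 0 of 22 against 4 of 22 nuclei. At that depth none of these 5 genes was higher in all 4 libraries. Nr4a3 was found in 8.47%, 13.1%, 8.01% and 5.48% of the chosen nuclei of Trained replicates 1 and 2 and Untrained replicates 1 and 2, against 5.93%, 5.02%, 2.26% and 1.73% of matched nuclei. That is a mean difference of 5.04 percentage points ± 2.44 (SD, n = 4), with an exact two-sided sign-flip permutation p of 0.25 after Benjamini-Hochberg adjustment over 10 genes. The unadjusted p was the smallest that 4 libraries can give. Arc was found in 5.19%, 6.29%, 8.13% and 4.58% of chosen nuclei against 4.44%, 2.10%, 2.24% and 4.01% of matched ones, so the gap was wide in Trained replicate 2 and Untrained replicate 1 and narrow in the other libraries. With probable doublets left out, Arc was higher in 3 of 4 libraries, and Egr1, Egr4, Npas4 and Nr4a3 in 4 of 4. The mean difference for Egr3 was then 0.11 points. With matching within cluster too, Npas4 was higher in 3 of 4 libraries. Arc, Egr1, Egr4, Nr4a3, Fos and Junb were then higher in 4 of 4.

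Arc, Egr1, Egr4 and Npas4 had that same adjusted exact permutation p of 0.25. Summed over libraries, Egr1 was found in 10.9% of chosen and 5.98% of matched nuclei, Egr4 in 3.06% and 1.23%, and Npas4 in 2.93% and 1.09%. Junb, Fos, Fosb and Egr3 were higher in 3 of 4 libraries (adjusted exact permutation p of 0.469, 0.417, 0.469 and 0.5) and Nr4a1 in 2 of 4 (0.5), Trained replicate 1 being among the exceptions for Junb, Fosb, Egr3 and Nr4a1. In nuclei thinned to 600 UMIs, the share with Arc was 1.88% with none of the other genes, 2.22% with 1 and 5.38% with 2 or more, and that with Nr4a3 was 1.92%, 2.79% and 6.20%.

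**Figure D2:**
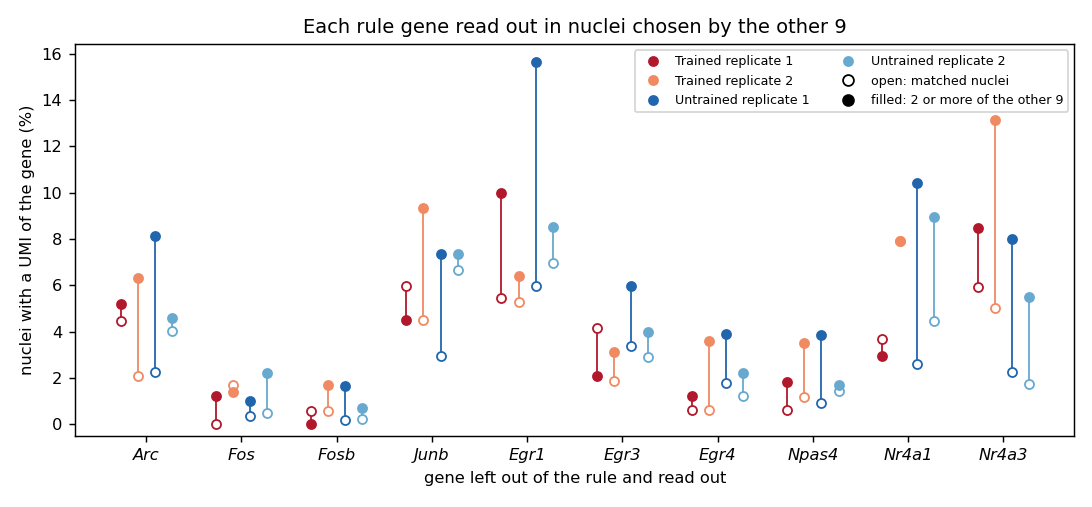
Share of nuclei with a UMI of each rule gene (y axis, percent) when that gene is left out of the rule: filled points are nuclei with 2 or more of the other 9 genes, open points depth-matched nuclei with none, and colours the 4 libraries. Filled points lie above open ones in 4 of 4 libraries for Arc, Egr1, Egr4, Npas4 and Nr4a3.

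Low-UMI barcodes held these genes too. Low-UMI barcodes are those with a UMI total below, at or just above the commonest total of their library. They were taken here as a measure of free RNA. In low-UMI barcodes, 7 of the 10 rule genes were at a higher level than in kept nuclei in all 4 libraries. The ratios were 1.53 to 2.83 for Arc and 2.53 to 3.57 for Egr1. Npas4, Nr4a1 and Nr4a3 were higher there in 3 of 4 libraries, with ratios of 0.866 to 1.103, 0.876 to 1.68 and 0.988 to 1.99. After thinning, Arc, a neuronal gene, was found in 2.26% of oligodendrocyte-like nuclei and in 2.32% of CA1-pyramidal-like nuclei (median depths 908 and 974.5 UMIs before thinning). The oligodendrocyte-like clusters differed among themselves, with 1.70% to 6.70% members before thinning. Some of them also carried neuronal markers. The cluster with 6.70% had a mean log2 marker score of 1.43 for its own list and 0.63 for deep-layer cortical markers. Npas4 was found in 0.411% of oligodendrocyte-like and 1.05% of CA1-like nuclei, and Nr4a1 in 1.85% and 3.04%. The part of free RNA in the choice of members was not tested.

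Members were drawn from some classes of nuclei more than from others. Classes came from clusters made without the rule genes, and each member was set against a nucleus of the same library and depth (UMI totals within 5%) that held none of the rule genes. Of 17 classes tested, 9 differed (52.9% of classes; edgeR quasi-likelihood test with Benjamini-Hochberg adjustment). No class was called without Untrained replicate 1 or without Untrained replicate 2. CA1-pyramidal-like nuclei, the output neurons of the hippocampus, made up 21.8% of members and 16.9% of matched nuclei, a log2 ratio of 0.37 (SE 0.10, edgeR adjusted p 0.00476). They numbered 26, 101, 109 and 112 among members against 25, 66, 91 and 88 among matched nuclei, higher in every library. Upper-layer-cortical-like nuclei (185 against 122, log2 ratio 0.60), deep-layer-cortical-like nuclei (118 against 70, 0.75) and subicular-like nuclei (69 against 41, 0.74) were also more common among members. Cortical-like and thalamic-like nuclei were present although the tissue is labelled hippocampus.

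Dentate-granule-like nuclei, the entry neurons of the hippocampal circuit, which fire sparsely, made up 8.94% of members and 14.3% of matched nuclei, a log2 ratio of -0.68 (SE 0.14, edgeR adjusted p 0.000127). They numbered 17, 37, 38 and 51 among members against 14, 53, 85 and 77, so Trained replicate 1 went the other way. Inhibitory-like nuclei (100 against 153, -0.61), thalamic-excitatory-like nuclei (64 against 109, -0.76) and an unnamed cluster led by Rmst and Ebf1 (77 against 109, -0.50) were less common among members. CA3-pyramidal-like nuclei, at 179 against 155, did not pass the test (log2 ratio 0.21, edgeR adjusted p 0.292), nor did astrocyte-like (65 against 75) or oligodendrocyte-like nuclei (76 against 97). Another unnamed cluster, led by Atp5e, AY036118 and ribosomal protein genes, stood at 25 against 8 (1.59), and 373 of its 498 nuclei came from Untrained replicate 1 at a median of 668 UMIs.

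**Figure D3:**
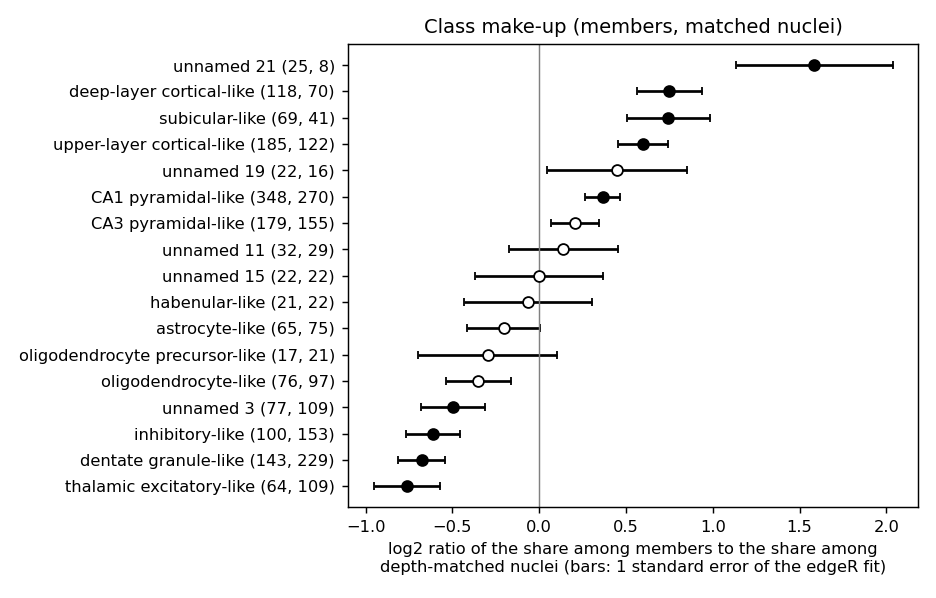
Log2 ratio of each class's share among members to its share among depth-matched nuclei (x axis; bars are 1 standard error of the edgeR fit), with both counts in brackets; filled points passed an adjusted p of 0.05. CA1-like and cortical-like nuclei lie to the right (0.37 to 0.75) and dentate-granule-like, inhibitory-like and thalamic-like nuclei to the left (-0.61 to -0.76).

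Genes outside the rule were then compared between members and depth-matched nuclei, with UMIs summed per library and the rule genes taken out. Of 8006 genes tested, 169 were called (2.11%; edgeR quasi-likelihood test, adjusted p under 0.05), 90 higher in members (1.12%) and 79 lower (0.987%). Of these, 140 lay on the same side in all 4 libraries, while 9.79% of all genes tested were higher in all 4 and 7.41% lower. Homer1, a postsynaptic scaffold gene with a short form induced by activity, had the smallest p: members held 568.8, 745.1, 378.5 and 473.2 CPM (UMIs of a gene scaled to a common library total) in Trained replicates 1 and 2 and Untrained replicates 1 and 2, against 247.9, 172.2, 203.7 and 203.4 in matched nuclei. Every member value lay above every matched value, with a log2 change of 1.32 (SE 0.10, edgeR adjusted p 4.07e-23). Bdnf, a secreted neurotrophin, was at 111, 99.5, 52.8 and 71.2 CPM against 41.3, 29.95, 26.1 and 20.2, a log2 change of 1.46 (SE 0.23, adjusted p 6.49e-07), again with no overlap. Pcsk1, a protease that cuts prohormones in secretory vesicles, had a log2 change of 1.85 (SE 0.30, adjusted p 1.92e-06) that leaned on Trained replicate 2, where 48 UMIs stood against 2. Without Trained replicate 2 the count of called genes was 99, and without Untrained replicate 2 it was 93.

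The other genes named at the top of this list included a peptidase-like partner of potassium channels, Dpp10 (log2 change 0.65), and the channel gene Kcnh7 (0.46). Ntrk2, which encodes the Bdnf receptor TrkB, had a log2 change of 0.55, the phosphodiesterase gene Pde10a 0.44 and the sodium-calcium exchanger gene Slc8a1 0.35. R3hdm1, Phactr1, which regulates actin and protein phosphatase, and Brinp1 stood at 0.58, 0.35 and 0.39. Dpp10 was among the leading genes of the upper-layer-cortical-like and deep-layer-cortical-like clusters, which were more common among members. Lower genes included markers of the classes that were rarer among members. Erbb4 (-0.48) and Nxph1 (-0.79) stand on the list of inhibitory markers, and Ntng1 (-0.68) and Synpo2 (-0.90) on that of thalamic markers. The potassium channel gene Kcnc2 (-0.67) and the adhesion gene Kirrel3 (-0.62) were also lower, as were Inpp4b (-0.69), Zfp536 (-0.67), Ahcyl2 (-0.54), Tafa2 (-0.43), the channel gene Trpm3 (-0.40) and the synaptic adhesion gene Lrrtm4 (-0.27).

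Within classes the number of called genes was smaller. Each member was next matched to a nucleus of the same library, depth and cluster, which left 1550 members. Of 7698 genes tested, 15 were called (0.195%; edgeR quasi-likelihood test), 14 higher (0.182%) and 1 lower (0.013%), of which 14 were also called without class matching, and 13 lay on the same side in all 4 libraries (6.9% of all genes were higher in all 4 and 7.25% lower). Homer1 again led, at 588.5, 773.5, 372.3 and 468.5 CPM in members against 251.9, 268.8, 226.4 and 259.6 in matched nuclei, with no overlap (log2 change 1.02, SE 0.10, edgeR adjusted p 4.01e-09). Without Trained replicate 2 only Homer1 and 1700016P03Rik, described below, were called (2 genes), without Untrained replicate 1 there were 7 and without Untrained replicate 2 there were 6. Homer1 stayed past the threshold in 15 of 15 alternatives (edgeR or DESeq2 adjusted p 5.78e-28 to 0.01997).

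Immediate early genes that the rule did not use were among the called genes. Nr4a2, the third member of the Nr4a family of nuclear receptors, was at 66.2, 133.1, 89.4 and 66.7 CPM in members against 37.0, 27.4, 43.1 and 50.5 (log2 change 1.09, SE 0.21, edgeR adjusted p 0.00632). Every member value was above every matched value. Btg2, an antiproliferative gene induced by growth factors and p53, stood at 51.5, 47.1, 37.9 and 28.8 CPM against 22.2, 13.7, 5.39 and 14.4 (1.75, SE 0.34, adjusted p 0.00632), on 3 to 8 matched UMIs per library. Tiparp, a mono-ADP-ribosyltransferase gene, stood at 88.3, 116.5, 51.5 and 54.1 CPM against 22.2, 19.2, 21.6 and 32.4 (1.47, SE 0.25, adjusted p 0.00102). Of 40 genes in the list of other immediate early genes, 13 were tested within classes, and 3 were called higher and none lower, beside 0.182% called higher among all genes. Jun (0.28, adjusted p 0.89), Per1 (0.50, 0.793) and Rheb (0.45, 0.371) did not pass. Only genes with enough UMIs in members or matched nuclei were tested, and a gene that is high in members can pass through them alone, so the count is a description and does not speak for the whole list.

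Of 28 later effectors of activity, 27 were in the files and 19 were tested within classes. Homer1 and Brinp1, an inhibitor of the cell cycle in neurons (log2 change 0.26, SE 0.06, edgeR adjusted p 0.0471), were called higher and none lower. Among all genes 0.182% were called higher, and the list median was 0.22. Here too a gene high in members can enter the test through them alone, so the count is a description. Brinp1 passed in 8 of 15 alternatives (edgeR or DESeq2 adjusted p 0.00143 to 0.9998). Bdnf was at 117.7, 105.4, 54.2 and 70.3 CPM in members against 81.5, 49.4, 41.8 and 41.5, higher in 4 of 4 libraries and overlapping between sets (0.68, SE 0.20, adjusted p 0.249). Its adjusted p ranged from 0.000205 to 0.9998 over 14 alternatives and passed in 3 of them, among them the fit with 3 matched nuclei per member. Pcsk1 (0.95, adjusted p 0.213), Vgf (0.48, 0.785), Scg2 (0.22, 0.881), Sorcs3 (0.18, 0.76) and Inhba (0.04, 0.986) did not pass.

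No regulator upstream of the rule genes passed the test. Of 26 such genes, among them Creb1, its CRTC coactivators, Mef2 factors and calcium-dependent kinases, 23 were tested within classes and none was called (edgeR quasi-likelihood test; 0.195% of all genes called), with 3 at an unadjusted p under 0.05 and a list median of -0.03. The smallest p was that of Ep300, a histone acetyltransferase (-0.40, SE 0.16, adjusted p 0.617). In the MAP kinase cascade 22 of 24 genes were tested and none was called, with a list median of -0.02. Rasgrf2, an exchange factor for Ras, had a log2 change of -0.39 (adjusted p 0.605) within classes and was lower without class matching (-0.55, adjusted p 0.0267). Among 14 genes of memory and plasticity, all tested, Homer1 and Ntrk2 were called higher and none lower, beside 0.182% called higher among all genes. The median of this list was 0.01.

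A transcript that spans the microRNA genes Mir212 and Mir132 was among the called genes, and it is named here because of its values, outside the rule for naming genes. The gene 1700016P03Rik lies at chr11:75172560-75177633 (GRCm38, GENCODE vM21, plus strand), is annotated as a processed transcript, and spans both microRNA hairpins, whose products are known to be induced by CREB. Its 2 main mature products share the seed, bases 2 to 8, printed in capitals from RefSeq (GRCm38.p6).
mmu-miR-132-3p, chr11:75173723-75173744, plus strand: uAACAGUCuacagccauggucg
mmu-miR-212-3p, chr11:75173443-75173464, plus strand: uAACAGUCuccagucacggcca
Members held 95.6, 196.8, 65.0 and 140.5 CPM of this gene against 59.3, 46.6, 17.5 and 61.3 in nuclei matched for depth and class. Every member value lay above every matched value, with a log2 change of 1.54 (SE 0.19, edgeR adjusted p 2.03e-06), and it stayed past the threshold in 13 of 14 alternatives, the fit without the library block being the exception. The counts measure this host transcript and not the microRNAs. Its end overlaps the protein-coding gene Ovca2 on the other strand, and since the use of strand in counting is not given in the sources used here, reads of these genes cannot be told apart.

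Ntrk2 itself was at 544.4, 923.2, 511.8 and 935.2 CPM in members against 444.5, 589.8, 443.5 and 690.3 in nuclei matched for depth and class (log2 change 0.41, SE 0.07, edgeR adjusted p 0.00102), higher in each library while the sets overlapped. Gm47423, also named because of its values, is annotated as antisense within Ntrk2 (chr13:58824218-58826994, minus strand, GRCm38). It stood at 29.4, 135.8, 82.6 and 63.1 CPM against 44.4, 43.9, 31.0 and 19.8, lower in Trained replicate 1 and higher in the other libraries (1.41, SE 0.22, adjusted p 0.000323). Reads of Ntrk2 and Gm47423 cannot be told apart without strand.

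Other called genes were of several kinds. Sik2, a kinase that keeps CRTC coactivators of CREB out of the nucleus, was at 169.2, 202.4, 100.2 and 200.01 CPM in members against 96.3, 128.9, 71.4 and 115.4 (log2 change 0.67, SE 0.14, edgeR adjusted p 0.0104). Rgs7bp, which anchors regulators of G protein signalling, had a log2 change of 0.38 (adjusted p 0.00632). Dpp10, R3hdm1 and Pde10a had changes of 0.22, 0.32 and 0.29 (adjusted p 0.00401, 0.0140 and 0.0121), and Pde10a, likewise named because of its values, did not lie on one side in every library, since Trained replicate 1 held 757.7 CPM in members against 763.0 in matched nuclei. Utp14a, a gene of ribosome assembly, was the only lower gene, at 14.7, 8.32, 18.9 and 12.6 CPM against 22.2, 43.9, 39.1 and 43.3 (-1.45, SE 0.31, adjusted p 0.0170), on 2 to 14 UMIs per library in members.

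**Figure D4:**
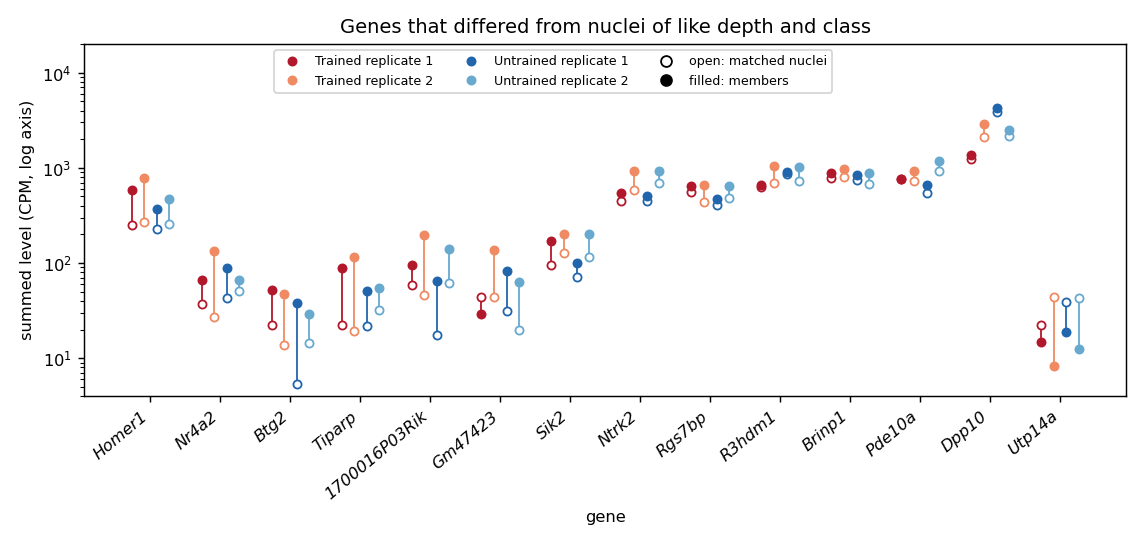
Level of 14 of the 15 genes called between members (filled) and nuclei matched for library, depth and class (open), in CPM on a log axis, with a line for each of the 4 libraries. Homer1 stands apart in every library, and Gm47423 in Trained replicate 1 and Utp14a in all 4 libraries are lower in members.

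Levels in low-UMI barcodes differed between these genes. Nr4a2, Btg2 and Bdnf were higher in low-UMI barcodes than in kept nuclei in all 4 libraries, Nr4a2 at 83.5, 64.8, 87.5 and 91.4 CPM against 42.7, 36.8, 48.5 and 36.2. Homer1 was lower there in all 4 libraries (178, 160, 164 and 173 CPM against 255, 250, 213 and 223), and so were Ntrk2, Sik2, Dpp10 and 1700016P03Rik. No gene of the heat shock list (11 of 16 tested), the list of RNA quality (10 of 10), the ribosomal protein list (82 of 97) or the mitochondrial genome (13 of 13) was called between members and class-matched nuclei. Their medians were 0.08, 0.01, 0.08 and 0.11. Positive changes were found in 61 of 82 ribosomal protein and 10 of 13 mitochondrial genes, beside 51.0% of all genes. Summed over genes, the heat shock, ribosomal protein and mitochondrial lists were higher in members in all 4 libraries. The RNA quality list was lower in members of Trained replicate 1. Ribosomal protein genes stood at 12775, 11364, 16633 and 12543 CPM against 11734, 10783, 15817 and 11798, with 37628 to 53993 CPM in low-UMI barcodes. With probable doublets left out, 12 genes were called within classes.

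Homer1 was higher in members of every class with at least 30 members. The values that follow were not tested by class and are UMIs summed over all libraries in equal numbers of members and matched nuclei. Homer1 had 187 UMIs in CA1-like members against 108, 100 against 43 in CA3-like, 125 against 71 in upper-layer-cortical-like and 121 against 59 in deep-layer-cortical-like nuclei. It had 67 against 29 in dentate-granule-like, 30 against 17 in inhibitory-like, 50 against 16 in oligodendrocyte-like and 28 against 15 in astrocyte-like nuclei. Several glia-like clusters also carried neuronal markers, so these values do not show Homer1 in glia. An oligodendrocyte-like cluster had a mean log2 marker score of 1.48 for its own list and 1.23 for dentate granule markers. For an astrocyte-like cluster the scores were 1.44 and 1.18. The highest-scoring cluster of each class, at 2.48 and 2.19, had another glial list second. The microRNA host 1700016P03Rik had 54 against 23 UMIs in CA1-like and 27 against 7 in deep-layer-cortical-like nuclei. Bdnf differed less, at 34 against 20 in CA1-like and 22 against 15 in CA3-like nuclei.

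Several of these genes stood higher the more rule genes a nucleus held. Homer1 stood at 202.8 CPM in nuclei with no rule gene, 276.4 with 1, 432.6 with 2 and 600.5 with 3 or more, over all libraries, and was higher at each step in every library. These steps are a description, since nuclei with more rule genes also held more UMIs (medians of 910, 992 and 1101 for none, 1 and members). Nuclei with exactly 1 rule gene lay just outside the rule and those with exactly 2 just inside. For 1700016P03Rik the levels were 29.8, 44.9, 90.1 and 172.4 CPM, with 3 to 19 UMIs per library in the last group. Bdnf, at 37.3, 40.8, 64.3 and 83.2 CPM, did not follow this order in every library: Trained replicate 2 stood at 96.9 with 2 and 44.3 with 3 or more, on 4 UMIs.

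**Figure D5:**
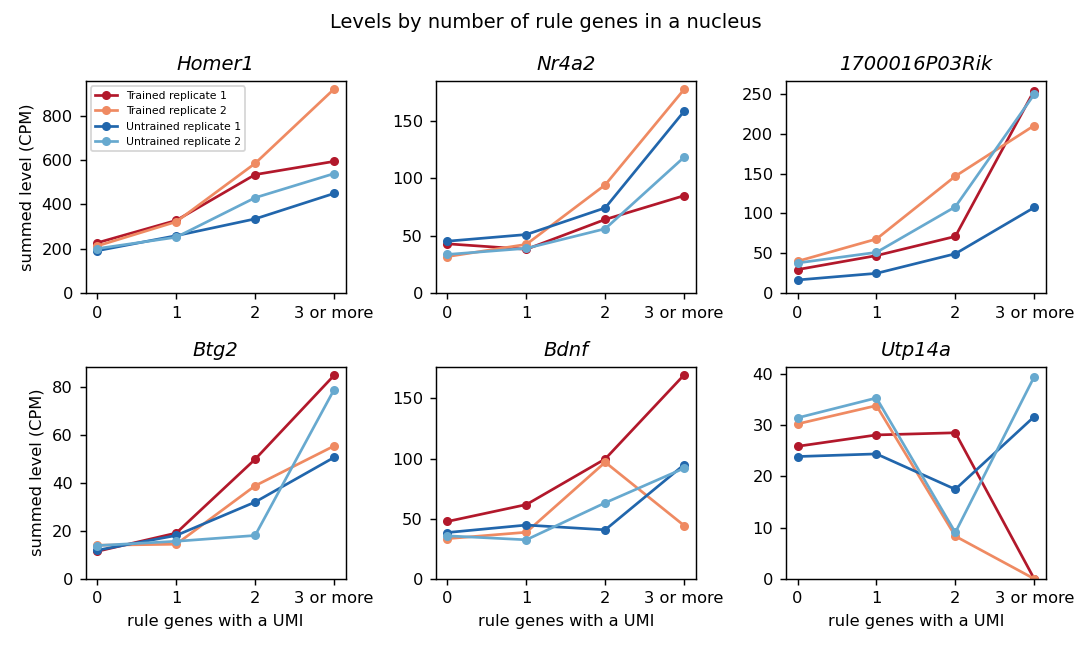
Summed level in CPM of 6 genes (y axes) by the number of rule genes in a nucleus (x axes), with a line for each library; only 15, 52, 99 and 47 nuclei of Trained replicates 1 and 2 and Untrained replicates 1 and 2 hold 3 or more. Homer1 is higher at each step in every library, and Utp14a shows no common order.

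Few genes differed with training within members. Of 8260 genes tested between the trained and untrained libraries, 1 was called (0.0121%; edgeR quasi-likelihood test). Ttr, which encodes the thyroxine carrier made by the choroid plexus, was at 1108 and 947.8 CPM in members of trained libraries and at 310.9 and 403.8 in untrained ones (log2 change 1.52, SE 0.19, edgeR adjusted p 0.000418), with no overlap between groups. It was also the gene called in the depth-matched nuclei (1.64, SE 0.18, 1 of 8290 genes, 0.0121%). In low-UMI barcodes Ttr stood at 3370 and 4314 CPM in trained and 1016 and 1666 CPM in untrained libraries. Ttr was thus higher in trained libraries there too, and the part of free RNA in the difference was not tested. Leaving out Untrained replicate 2 gave 22 called genes, Trained replicate 1 gave 6 and Trained replicate 2 gave 5.

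None of the genes that set members apart passed the test for training. Homer1 was at 557.5 and 703.6 CPM in trained and 372.8 and 469.4 in untrained members, so the groups did not overlap (log2 change 0.61, SE 0.19, edgeR adjusted p 0.846). Groups did not overlap for 34.9% of all genes tested. Bdnf (0.68, adjusted p 0.862), Per1 (0.91, 0.862), Btg2 (0.55, 0.896) and Pcsk1 (1.44, 0.766) were in the same direction, and Nr4a2 (0.34, 0.928) overlapped between groups. On the lower side Rnf121 (-1.65, adjusted p 0.2) and Mef2c, a factor that restrains excitatory synapse number (-0.79, 0.766), had the smallest p, followed by Fkbp3 (-1.03) and Grcc10 (-1.05), and on the higher side Adamtsl1 (1.09) and Pdlim5 (1.54) joined Pcsk1. The effect of training differed between members and depth-matched nuclei for 0 of 9204 genes (edgeR interaction test, 0% called; 398 at an unadjusted p under 0.05; 0 with DESeq2, 14 unadjusted). Homer1 had the interaction 0.79 (SE 0.22, unadjusted edgeR p 0.00103, adjusted 0.991).

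The mix of rule genes within members also varied by library. Nr4a3 was present in 39.0% and 39.1% of trained members and 27.2% and 25.1% of untrained members, Egr1 in 44.1% and 32.9% against 44.7% and 46.1%, and Arc in 27.7% and 27.2% against 26.7% and 24.0%. For the other 7 rule genes the groups overlapped. Groups did not overlap for 34.9% of all genes tested within members, which is a like share. The shares of the rule genes chose the members and are a description. All kept nuclei, as deposited, showed a like split for Nr4a3 (4.45% and 4.15% against 2.86% and 2.98%) and Egr1 (4.70% and 4.41% against 6.83% and 7.63%). The trained libraries were the shallower ones, and these shares were not thinned. The share of members within a class passed the test for training in none of 15 classes (0 called, 0%; edgeR quasi-likelihood test on thinned nuclei; 0 at an unadjusted p under 0.05). It was 3.87% and 3.57% in trained and 1.78% and 2.26% in untrained upper-layer-cortical-like nuclei (log2 ratio 0.93, SE 0.52, adjusted p 0.554). The trained shares rested on 7 of 181 and 9 of 252 nuclei, and with at least 1000 UMIs they were 0% and 3.17% against 1.72% and 1.95%. The share was 2.54% and 1.99% against 1.95% and 1.32% in CA1-like nuclei (0.43, SE 0.40, adjusted p 0.554).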

How the data were processed

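Nuclei of 4 libraries were counted with 10x Genomics 3' v3.1 chemistry. The authors deposited raw UMI counts per gene and barcode, made with Cell Ranger 7.0.0 per the file headers, while the submitters' processing notes name Cell Ranger 8, STAR and GRCm39. The use of strand is not given in the sources used here. Barcodes with at least 600 UMIs and at most 5% mitochondrial UMIs were kept. Clusters (scanpy 1.11.5, 2000 variable genes, 30 components, 20 neighbours, Leiden resolution 1) were made without the rule genes and named from marker lists. Probable doublets, at most 8% per library, were marked by simulated doublets and kept, with a fit without them as an alternative. Each member was matched without reuse to the nearest nucleus in UMI total with no rule gene, within 5%, of the same library and, in a second comparison, the same cluster, which paired 1600 and 1550 members. Counts were summed per library without the rule genes and tested with edgeR 4.0.16 (filterByExpr, TMM, quasi-likelihood test) with library as a block, or between 2 trained and 2 untrained libraries, with Benjamini-Hochberg adjustment over all genes. DESeq2 1.42.0 was an alternative. The edgeR gene fits of members against both matched sets, and of training within members, were tried on simulated counts. The interaction, the class tests, the permutation tests, the matching and the thinning were not.

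Genes were named by smallest p among called genes on one side in all 4 libraries (up to 12 each way), predicted, mitochondrial and ribosomal genes being left out; between trained and untrained libraries, those of smallest p filled up to 4 each way, and a fixed set of activity genes was always read out. Members, lists and tests were chosen with earlier results of these data known. Sequences came from RefSeq tables on GRCm38.p6, and gene positions from GENCODE vM21. Of the called genes, 1 is not reported here.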

Additional observations from a re-analysis of the deposited data

Results flagged for a closer look

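A signal appeared in barcodes that the comparisons did not use. In low-UMI barcodes, 7 of the 10 rule genes (Arc, Fos, Fosb, Junb, Egr1, Egr3 and Egr4) stood at a higher level than in kept nuclei in all 4 libraries, with ratios of 2.19 to 3.69 for Fos, 2.40 to 3.31 for Junb and 2.41 to 3.66 for Egr4. Their part in the choice of members was not tested.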

How the results depend on the processing

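The thinned difference in the share of members (0.348 points) was -0.664 points with no thinning. Genes called between members and depth-matched nuclei (169) numbered 27 with DESeq2, 7 with no library block and 24 with 3 or more rule genes, and 93 to 175 with a library left out. Those called with class matching (15) numbered 2 with DESeq2, 1 with no library block, 9 with a minimum of 1000 UMIs, 3 with 3 or more rule genes, 25 at Leiden resolution 2 and 27 when matched on UMIs outside the rule genes; 26 were called with 3 matched nuclei per member, an alternative chosen after seeing the data. With a library left out they numbered 2 to 15. Genes called with training (1) numbered 2 with no count filter, 0 with 3 or more rule genes and 2 to 22 with a library left out, and the interaction gave 0 to 1. The 9 classes numbered 0 with no library block or 3 or more rule genes, and 0 to 8 with a library left out. Left-out rule genes higher in every library (5) numbered 1 with a minimum of 1000 UMIs (Egr3, not among the 5). With 3 or more rule genes they numbered 2 (Junb and Nr4a3, of which Nr4a3 is among the 5). With a library left out they numbered 5 to 8, a count that could not fall below 5, since fewer libraries had to be higher. The mean difference for Egr1 was -0.30 points with a minimum of 1000 UMIs, with 3 of 4 libraries higher. Trained replicate 1 then stood at 0 of 22 against 4 of 22 nuclei. The causes were not tested.

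Signs turned for genes that passed in no fit of the comparison concerned. Against depth-matched nuclei, Jun was -0.0696 and Scg2 -0.12 with a minimum of 1000 UMIs, Scg2 -0.0317 at no more than 1% mitochondrial UMIs, and Inhba -0.0411 when matched on UMIs outside the rule genes. With class matching, Jun was -0.0940 and Inhba -0.0937 when matched on UMIs outside the rule genes, and Inhba was -0.00094 at Leiden resolution 2 and -0.12 to 0.25 with a library left out. With training and a library left out, Nr4a2 was -0.27 to 0.62, Fosl2 -0.49 to 0.43, Jun -0.34 to 0.80, Rheb -0.22 to 0.22, Sorcs3 -0.20 to 0.22, Vgf -0.21 to 0.60 and Inhba -0.47 to 0.35. With a minimum of 1000 UMIs, Jun was -0.77, Sorcs3 -0.15 and Vgf -0.22. Sorcs3 was -0.0261 with no count filter and -0.61 with 3 or more rule genes, and without probable doublets Vgf was -0.0144 and Inhba -0.0086.

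Replicate numbers appear only in the titles, and same-numbered libraries did not deviate together (correlation 0.0233), so they were not treated as pairs. With the replicate block, 2 genes were called with training, 0 classes were called, and Sorcs3 was -0.0069. Shallow nuclei limit the precision throughout, since most members rest on 2 UMIs.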
